A study of Mus musculus with 29 samples.

Results

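The T cell receptor and the first steps of its signalling were described here through 10 genes. They encode the constant regions of the receptor (Trac, Trbc1, Trbc2), 3 chains of the CD3 complex (Cd3d, Cd3e, Cd3g), the surface protein Thy1, and the proximal signalling proteins Lcp2, Lck and Zap70. The genes were chosen by name for these roles, with earlier results of these data known. They are 10 of the 54838 genes in the deposited table, and all 10 were found in it. Their values were read cell by cell in 29 single splenic T cells of OT-1 mice. These mice carry a transgenic T cell receptor specific for a peptide of ovalbumin (OVA) presented by a class I MHC molecule. Each cell was lysed in a tube of its own and its cDNA was made by SMART-seq2, a full-length method. The labels put 21 cells in a group that had interacted for 3 h with APC (antigen-presenting cells) presenting OVA. The other 8 cells had interacted for 3 h with APC presenting nothing. All 29 come from red-cell-lysed, strained splenocytes of the same strain. The labels name no mouse, culture, collection gate or age, nor what the APC were. Cells are called OVA cell 1 to 21 and nothing cell 1 to 8, with numbers that serve as names only. Cells of a group are not replicates of a condition, so each group counts as 1 sample and no test or p-value is given.

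An αβ T cell recognises peptide and MHC through its receptor chains, whose short tails cannot signal. The signal passes through the CD3 chains, whose cytoplasmic tyrosines are phosphorylated by the kinase Lck. The kinase Zap70 then docks there and phosphorylates the adaptors Lat and Lcp2 (SLP-76), which assemble the enzymes that open the calcium, protein kinase C and Ras branches. Thy1, a GPI-anchored protein of the cell surface, is a classical marker of mouse T cells. In a mature T cell the constant genes are spliced to a variable and a joining segment, so the segments in a library tell which rearranged receptor its transcripts could come from.

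Values are TPM, transcript abundances scaled per length and per library to a total of 1000000, in which ERCC spike-in RNAs are included. A gene was called detected at 1 TPM or more. Spike-ins took a median of 84.9% of TPM in OVA cells (5.58% to 97.7%) and 87.8% in nothing cells (14.8% to 99.4%). A median of 855 genes was detected per OVA cell (233 to 4180) and 795 per nothing cell (92 to 6385). Housekeeping genes (11 examined) were missing altogether from some libraries, since 19 of the 21 OVA libraries and 4 of the 8 nothing libraries had any. A 0 can therefore be a failed estimate, and such a value is described as listed at 0. Read numbers are unknown, since TPM keeps none. The 10 genes were not seen in every library: 16 of 29 libraries listed all 10 at 0. Which cell type those 16 held was not tested. The coreceptor gene Cd8a and the T cell surface genes Cd2 and Cd5 were at 0 in all 29. The coreceptor genes Cd8b1 and Cd4 and the CD3 ζ chain gene Cd247 were each detected in 1 cell. Cd8b1 was in OVA cell 13 (136 TPM), while Cd4 (30.5 TPM) and Cd247 (26.7 TPM) were in nothing cell 4, which had none of the 10. The granule and inflammation genes of the neutrophil list (S100a8, S100a9 and 7 more) were found in 15 OVA libraries and 5 nothing libraries, at summed levels of 0 to 20484 and 0 to 4016 TPM. Ly6g, a defining neutrophil marker, was at 0 throughout. Of 11 B cell genes 2 were detected (Cd79b and Ebf1), with summed levels of 0 to 45.9 TPM in OVA and 0 to 49.8 TPM in nothing cells, and Cd79a, Ms4a1, Ighm and Igkc were at 0. Of 13 genes of APC and class II MHC 4 were detected (Cst3, Cd74, Flt3 and Zbtb46; 0 to 350.0 and 0 to 61.6 TPM), and the class II genes H2-Aa, H2-Ab1 and H2-Eb1 were at 0. Of 12 macrophage and monocyte genes 7 were detected, in 10 OVA cells and 1 nothing cell (0 to 427 and 0 to 42.2 TPM). Lyz2 was the highest, and Adgre1 and C1qa were at 0.

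The 10 genes gave 290 values, of which 263 were at 0 and 27 were detected, 25 of them in OVA cells and 2 in nothing cells. Any gene of the set was seen in 12 of the 21 OVA cells (57.1%, exact Clopper-Pearson 95% interval 34.0% to 78.2%). The same held for 1 of 8 nothing cells (12.5%, 0.316% to 52.7%). These intervals overlap and cover counting error only. Of the 9 genes detected anywhere, 7 were detected in OVA cells only, where 46.9% of the 18781 genes detected in any cell were also found in OVA cells only. Cd3e was detected in a nothing cell only, as were 28.4% of those 18781 genes, and Cd3g was detected in both groups. Lck was listed at 0 in all 29 cells.

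**Figure D1:**
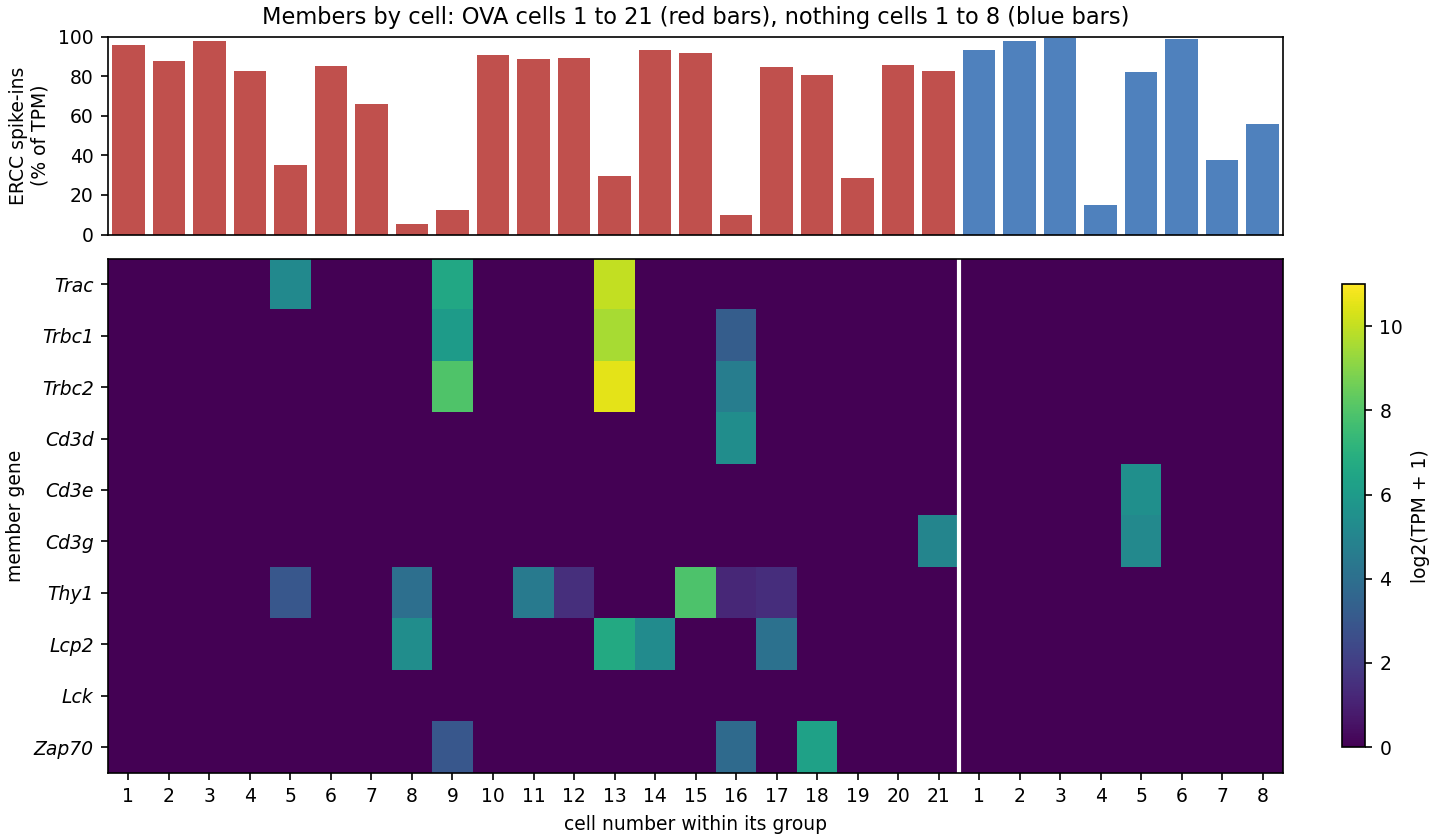
Upper bars give the ERCC spike-in share of each library (% of TPM), red for the 21 OVA cells and blue for the 8 nothing cells; the map below gives log2(TPM + 1) of the 10 genes in the same cells. Signal is sparse, with 27 of 290 values detected, 25 of them in OVA cells, and nothing cell 5 is the only nothing cell with any.

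The receptor constant genes were found in OVA cells 5, 9, 13 and 16. Within each of OVA cells 5, 9 and 13 they were the most abundant genes of the set, while in OVA cell 16 Cd3d lay above both β constant genes. Trac (chromosome 14, 54220521 to 54224206 on GRCm38, plus strand) encodes the constant region of the α chain. OVA cell 5 had 36.8 TPM of it, OVA cell 9 had 96.2 and OVA cell 13 had 1009, while the other 26 cells were at 0. Trbc1 (chromosome 6, 41538218 to 41539881) and Trbc2 (chromosome 6, 41546730 to 41548352) are the alternative constant regions of the β chain. A rearranged β gene normally uses one or the other.

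Trbc1 stood at 64.0 TPM (OVA cell 9), 756 TPM (OVA cell 13) and 8.42 TPM (OVA cell 16). Trbc2 was at 249.8, 1487 and 24.0 TPM in the same cells. Both β genes were at 0 elsewhere, so they were detected in the same 3 cells and always together, with Trbc2 the higher. The ratio of Trbc2 to Trbc1 took the values 3.9, 1.97 and 2.85 in that order of cells. The split between them is uncertain, because the genes are near-identical copies. Over 518 coding bases of the GENCODE M21 transcripts they differ at 23 (95.6% identical), at 1 of the 375 bases of the first exon and at 22 of the 143 that follow. A run of 259 bases is shared without a difference, so reads inside it fit both genes. The stretch below, coding bases 376 to 465, is shown because most coding differences follow the first exon. Untranslated sequence was not compared. Capitals mark its 12 differing bases.
Trbc1: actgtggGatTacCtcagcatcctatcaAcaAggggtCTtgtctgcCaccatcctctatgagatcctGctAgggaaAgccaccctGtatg
Trbc2: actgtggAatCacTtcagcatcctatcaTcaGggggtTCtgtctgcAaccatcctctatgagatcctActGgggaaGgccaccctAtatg

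The constant genes stood far apart in rank between these cells. In OVA cell 13 Trbc2 was the 29th, Trac the 44th and Trbc1 the 58th most abundant of 2273 detected genes. In OVA cell 9 Trbc2 was the 44th, Trac the 106th and Trbc1 the 161st of 1850. OVA cell 16 had Trbc2 at rank 442 and Trbc1 at rank 984 of 2320, and OVA cell 5 had Trac at rank 258 of 1292. Summed β transcripts exceeded Trac 3.26 times in OVA cell 9 and 2.22 times in OVA cell 13, the only cells with both chains. OVA cell 16 had β transcripts and no Trac, and OVA cell 5 had Trac and no β transcripts.

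Each constant gene was found in 3 of 21 OVA cells (14.3%, 3.05% to 36.3%) and in 0 of 8 nothing cells. A count of 0 of 8 still admits a share as high as 37.5% (3 cells of the 8). The OVA and nothing values overlapped at 0 in every case. The difference in mean log2(TPM + 1), OVA minus nothing, was 1.04 for Trac, 0.90 for Trbc1 and 1.10 for Trbc2. This is a difference of means that include zeros, not a fold change. Without OVA cell 13 these differences were 0.59, 0.46 and 0.63.

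Segments of the OT-1 α chain were found beside constant genes in OVA cells 9 and 13. The OT-1 receptor is built from a Trav14-family α segment joined to Traj33 and from Trbv12-1 joined to Trbj2-7. Its joining segments were singled out after their values had been seen. In OVA cell 13 the 8 entries of the Trav14 family with a value summed to 728 TPM, Traj33 was at 604 TPM and Trbj2-7 at 423 TPM. In OVA cell 9 the Trav14 family summed to 112 TPM over 6 entries and Traj33 was at 34.8 TPM. Traj33 was detected in these 2 cells only, the same 2 that held both Trac and a β constant gene, and Trbj2-7 in OVA cell 13 only. The Trav14 family was not particular to them, since OVA cell 4, nothing cell 4 and OVA cell 18 also had it. OVA cells 9 and 13 had no Trbv segment, and Trbv12-1 was detected in nothing cell 4 only. Reads cannot be assigned to single Trav14 copies, since Trav14d-1 and Trav14n-1 are identical over their 415 bases. The 2 joining segments are printed because they are the joining segments of the OT-1 receptor that were found beside constant genes. They lie at chr14:54185358-54185414 and chr6:41543810-41543856 (GRCm38, plus strand), and capitals mark the codons of the conserved motif (phenylalanine or tryptophan, glycine, any residue, glycine).
Traj33: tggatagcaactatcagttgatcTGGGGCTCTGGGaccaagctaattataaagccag
Trbj2-7: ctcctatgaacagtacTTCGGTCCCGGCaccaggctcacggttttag

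The other cells with a constant gene held other segments. OVA cell 5 had Traj32 (33.7 TPM) and Trbj1-5 (15.7 TPM). OVA cell 16 had Trav6n-7 (7.94 TPM), Trav6d-7 (7.69 TPM), Trav9-1 (8.34 TPM), Trav9d-1 (7.40 TPM) and the pseudogene Trav13-3 (4.64 TPM), and no joining segment. All 4 cells with a constant gene thus had at least 1 segment, and 3 of them had a joining segment.

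Segments were also found without any constant gene. A variable segment was detected with no constant gene in 7 OVA cells and 3 nothing cells. OVA cell 4 had 305 TPM of the Trav14 family alone. OVA cell 18 had Traj15 at 909.6 TPM beside Trav14-1 at 50.2 TPM. Nothing cell 4 carried segments of 6 Trav families and 2 Trbv families, among them Trav14 (124 TPM), Trav9 (427 TPM) and Trbv12-1 (59.8 TPM), and listed all 3 constant genes at 0. Of the 254 annotated α, β, γ and δ segment entries, 17.3% were detected in at least 1 cell, beside 34.2% of all genes. In OVA cells the shares were 11.0% of segments and 24.5% of genes, and in nothing cells 8.66% and 18.2%. The share of segments detected was thus below that of all genes in both groups.

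**Figure D2:**
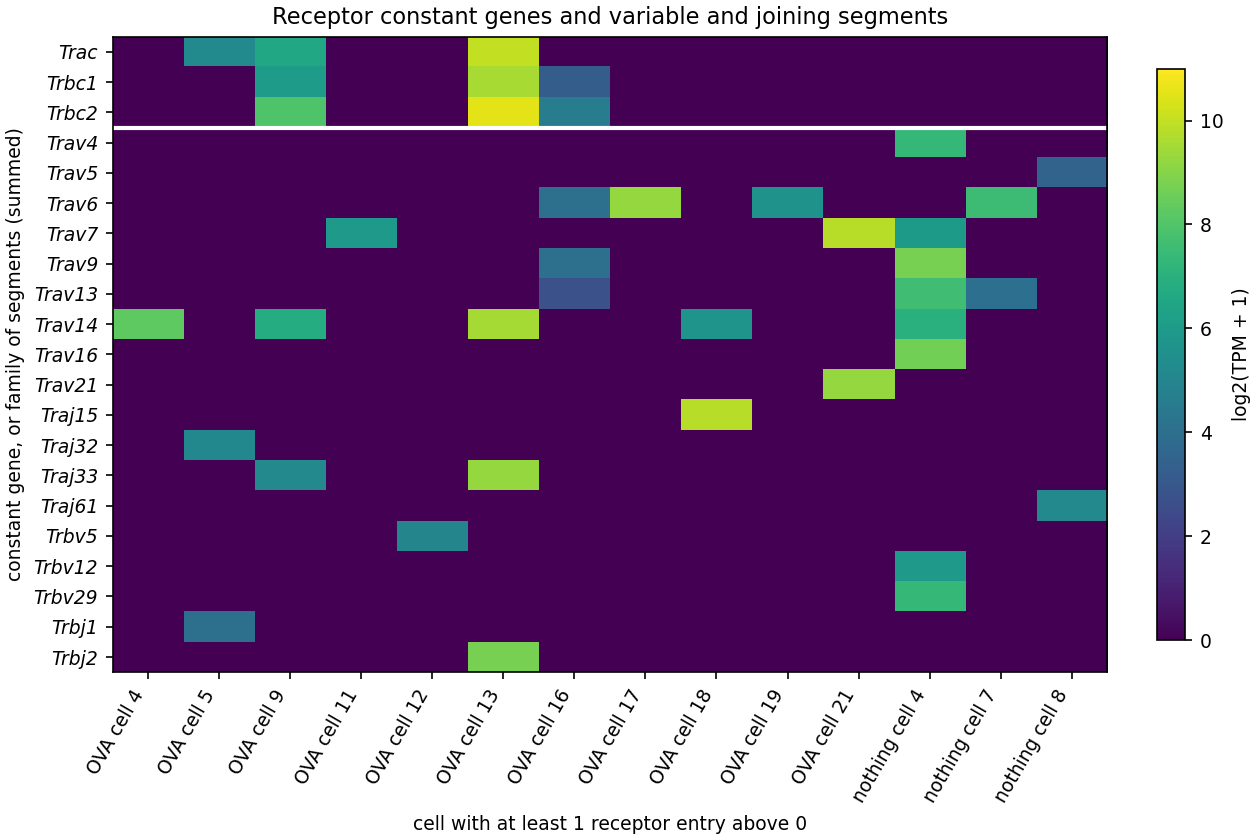
Log2(TPM + 1) of the 3 constant genes (above the white line) and of segment families, summed within a family, in the cells with any receptor entry above 0. Trav14, Traj33 and constant genes coincide in OVA cells 9 and 13, while nothing cell 4 shows 8 variable families and no constant gene.

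The CD3 chains, which carry the receptor's signal into the cell, were the scarcest group. Cd3g, Cd3d and Cd3e lie within 40056 bases of chromosome 9, and the starts of Cd3g (minus strand) and Cd3d (plus strand) are 1355 bases apart. Cd3d (44981786 to 44987339) encodes the δ chain and was detected in OVA cell 16 only, at 41.0 TPM. Cd3e (44998740 to 45009627, minus strand) encodes the ε chain, which pairs with either of the other chains, and was detected in nothing cell 5 only, at 43.4 TPM. Cd3g (44969572 to 44980431) encodes the γ chain and was at 31.4 TPM in OVA cell 21 and 35.3 TPM in nothing cell 5. No cell had Cd3d with Cd3e or Cd3g, and nothing cell 5 alone had a pair of CD3 chains, ε and γ.

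Any CD3 chain was seen in 2 of the 21 OVA cells (9.52%, 1.17% to 30.4%) and in 1 nothing cell of 8 (12.5%, 0.316% to 52.7%). OVA cell 16 was the only cell with a CD3 chain and a receptor constant gene. The differences in mean log2(TPM + 1) were 0.26 for Cd3d, -0.68 for Cd3e and -0.41 for Cd3g, and each rests on 1 cell or, for Cd3g, 1 cell in each group. Without OVA cell 21 the difference of Cd3g was -0.65. Without nothing cell 5 the difference of Cd3g turned to 0.24 and that of Cd3e to 0. Without OVA cell 16 that of Cd3d was 0. Spike-ins took 82.3% of nothing cell 5 and 82.9% of OVA cell 21. Rescaled without spike-ins, Cd3e was at 244 TPM and Cd3g at 199 TPM in nothing cell 5, Cd3g at 184 TPM in OVA cell 21, and Cd3d at 45.5 TPM in OVA cell 16. Nothing cell 5 also held S100a8 (1234 TPM) and Hba-a1 (249 TPM), a neutrophil and an erythroid gene. Their part in its values was not tested.

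Thy1 was the most often detected gene of the set. It lies on chromosome 9 (44043384 to 44048579, plus strand) and was found in 7 of 21 OVA cells (33.3%, 14.6% to 57.0%) and in no nothing cell (0 of 8, limit 37.5%). OVA cell 15 had 240.3 TPM, OVA cell 11 had 22.1, OVA cell 8 had 15.0, OVA cell 5 had 7.04, OVA cell 12 had 1.81, OVA cell 17 had 1.73 and OVA cell 16 had 1.35. One cell stood above all others, and 3 of the 7 values lay under 2 TPM, near the detection threshold. Within its library Thy1 ranked 53rd of 742 detected genes in OVA cell 15 but 2179th of 2320 in OVA cell 16, 1139th of 1233 in OVA cell 12 and 474th of 534 in OVA cell 17.

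Thy1 depended most on the scaling among the 10 genes. Its difference in mean log2(TPM + 1) was 1.13 as deposited, 0.79 without OVA cell 15, and 1.71 after rescaling without spike-ins. OVA cell 15 had 91.6% spike-ins, and its Thy1 level became 2860 TPM on the rescaled total, while that of OVA cell 16 (9.88% spike-ins) went from 1.35 to 1.502 TPM. Of the 7 cells with Thy1, OVA cells 5 and 16 had a receptor constant gene.

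Lcp2 and Zap70 were detected in OVA cells only. Lcp2 (chromosome 11, 34046920 to 34092295, plus strand), the SLP-76 adaptor downstream of Zap70, had 41.4 TPM (OVA cell 8), 102 TPM (OVA cell 13), 38.4 TPM (OVA cell 14) and 16.3 TPM (OVA cell 17). Its 4 cells are 19.0% of the OVA group (5.45% to 41.9%), and no nothing cell had it. Its difference was 1.02, and 0.74 without OVA cell 13. Lcp2 is also used by other blood cells, and OVA cell 8, which held 7 of the 9 neutrophil genes (20484 TPM in sum), was one of its 4 cells. OVA cells 13 and 14, with Lcp2, had 0 of 9, and OVA cell 17 had 1. Over cells with fewer than 3 neutrophil genes, which leaves out OVA cell 8, the difference of Lcp2 was 1.24. This subset was chosen after seeing the data. The part of neutrophil genes in the difference of Lcp2 was not tested.

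Zap70 (chromosome 1, 36761798 to 36782818, plus strand) had 6.91 TPM (OVA cell 9), 13.1 TPM (OVA cell 16) and 76.4 TPM (OVA cell 18). It was highest in a cell with no other gene of the set, which ranked Zap70 160th of 841 detected genes. In OVA cells 9 and 16 it came with β constant transcripts. Its difference was 0.62, and 0.34 without OVA cell 18. Its 3 cells held 5, 6 and 3 neutrophil genes in that order. None of them is among the cells with fewer than 3, so its difference there was 0 by construction. The part of neutrophil genes in the difference of Zap70 was not tested. Lck (chromosome 4, 129548344 to 129573641, minus strand), the kinase that acts before Zap70, was at 0 in all 21 OVA cells (limit 14.3%) and all 8 nothing cells (limit 37.5%). At least 1 of Thy1, Lcp2 and Zap70 was detected in 11 of the 21 OVA cells (52.4%, 29.8% to 74.3%). None was in the 8 nothing cells (limit 37.5%). Each was in OVA cells only, as were 46.9% of all genes detected in any cell. Some other lists were also found in a larger share of the OVA libraries. General leukocyte genes (8 examined) were found in 12 of 21 OVA and 2 of 8 nothing cells, and housekeeping genes in 19 and 4. The B cell list went the other way (4.76% of OVA and 25% of nothing cells). So did the APC and class II MHC list (14.3% and 25%) and the NK cell list (9.52% and 12.5%).

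Over the 10 genes the median difference in mean log2(TPM + 1) was 0.76, beside 0.07 over the 18781 genes detected in at least 1 cell and 0.10 over the 3717 detected in at least 3. The 10 genes were chosen with earlier results of these data known, so values set beside those of all genes are descriptions only. A difference above 0 was found for 7 of the 10 genes and for 53.3% of the 18781. A difference of at least 1 in favour of OVA cells was found for Trac, Trbc2, Thy1 and Lcp2, 4 of 10, and for 1.84% of the 18781. The same size in favour of nothing cells was found for 0 of 10 and for 3.59%. Genes seen in few cells lower these shares. Among the 3717 genes detected in at least 3 cells, 346 were higher and 246 lower by at least 1. Of the 10 genes 6 were detected in at least 3 cells, among them the 4 named. Each of the 4 fell under 1 when 1 cell was left out, OVA cell 13 or, for Thy1, OVA cell 15. The median over the 10 genes was 0.34 with a pseudocount of 10 and 1.22 with 0.1, and 0.37 with 5 genes higher in cells with fewer than 3 neutrophil genes. Lists of other kinds lay close to it or at 0. The 11 housekeeping genes had a median of 0.98 (10 higher, 5 by at least 1), the 8 general leukocyte genes 0.95 (7 higher, 4 by at least 1) and the 9 neutrophil genes 0.71 (8 higher, 3 by at least 1). The B cell, APC and class II MHC, macrophage and monocyte, NK cell, and erythroid and platelet lists had a median of 0.00. Their part in the difference of the receptor genes was not tested.

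Each gene was found in few cells, from 0 for Lck to 7 for Thy1, which limits how many cells a pair can share. Pairs of other genes were not counted, so the numbers below are descriptions only. Of 45 pairs, 19 shared at least 1 cell, 6 shared at least 2 and 1 shared 3, the pair Trbc1 and Trbc2. Trac shared OVA cells 9 and 13 with both β genes, 66.7% of the cells of each. Thy1 and Lcp2 shared OVA cells 8 and 17, which are 28.6% of the Thy1 cells and 50% of the Lcp2 cells. Zap70 (3 cells) and Lcp2 (4 cells), neighbours in the pathway, shared none. Neither did Trac and any CD3 chain.

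**Figure D3:**
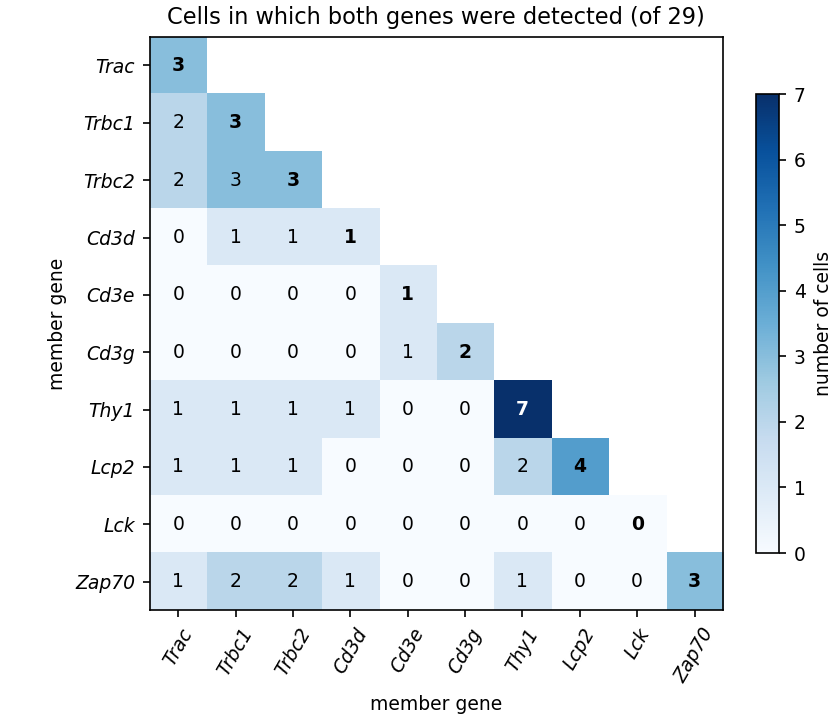
Number of the 29 cells in which both genes of a pair were detected at 1 TPM or more; the diagonal, in bold, gives the cells of each gene alone. Thy1 has the highest diagonal value, 7 cells, and the pair Trbc1 and Trbc2 is the only one that shares 3.

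Counted by cell, 6 OVA cells and 1 nothing cell had at least 2 of the 10 genes. OVA cell 16 had 5 (Trbc1, Trbc2, Cd3d, Thy1, Zap70), OVA cell 9 had 4 (Trac, Trbc1, Trbc2, Zap70) and OVA cell 13 had 4 (Trac, Trbc1, Trbc2, Lcp2). Their libraries had spike-in shares of 9.88%, 12.6% and 29.4% and 2320, 1850 and 2273 detected genes. OVA cells 5, 8 and 17 and nothing cell 5 had 2 each, and 6 OVA cells had 1.

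The cells with most of these genes differed in what else they held. OVA cell 13 had 0 of 9 neutrophil genes and 0 of 8 erythroid and platelet genes. It had 12 of the 67 other genes of the pathway, among them Fyb at 439 TPM, Lat at 226 TPM and Cd8b1 at 136 TPM (Lat and Cd8b1 were picked after their values were seen). From lists of other cell types it held Klrd1 (648 TPM), a receptor of NK cells that activated CD8 T cells also carry, and Cst3 (350 TPM). OVA cell 9 held 5 neutrophil genes (1109 TPM in sum, S100a9 highest at 629 TPM) and 4 erythroid genes (452 TPM). OVA cell 16 held 6 neutrophil genes (4171 TPM, S100a8 highest at 2334 TPM) and 4 erythroid genes (352 TPM). Of the 12 OVA cells with a gene of the set, 10 also had a neutrophil gene, as had 15 of all 21 OVA cells. Whether more than 1 cell or free RNA contributed to such tubes was not tested.

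Across cells, the number of genes of the set went with measures of the library. Over the 21 OVA cells Pearson's r was -0.73 with the spike-in share (Spearman's rho -0.52) and 0.58 with genes detected (rho 0.53). Over all 29 cells r was -0.57 (rho -0.46) and 0.27 (rho 0.44). Both measures come from the same libraries as the genes, so these are descriptions. Single libraries departed from them. Nothing cell 4 had the most genes of all, 6385, and 14.8% spike-ins, and it listed all 10 at 0. OVA cell 17 had 534 genes and 84.9% spike-ins and held Thy1 and Lcp2. Among libraries with under 80% spike-ins, 5 of 7 OVA cells (976 to 4180 genes) and 0 of 3 nothing cells (1217 to 6385 genes) had at least 1 gene of the set. All 4 cells with a receptor constant gene were among those 7. Among libraries over 80%, it was 7 of 14 OVA cells and 1 of 5 nothing cells.

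**Figure D4:**
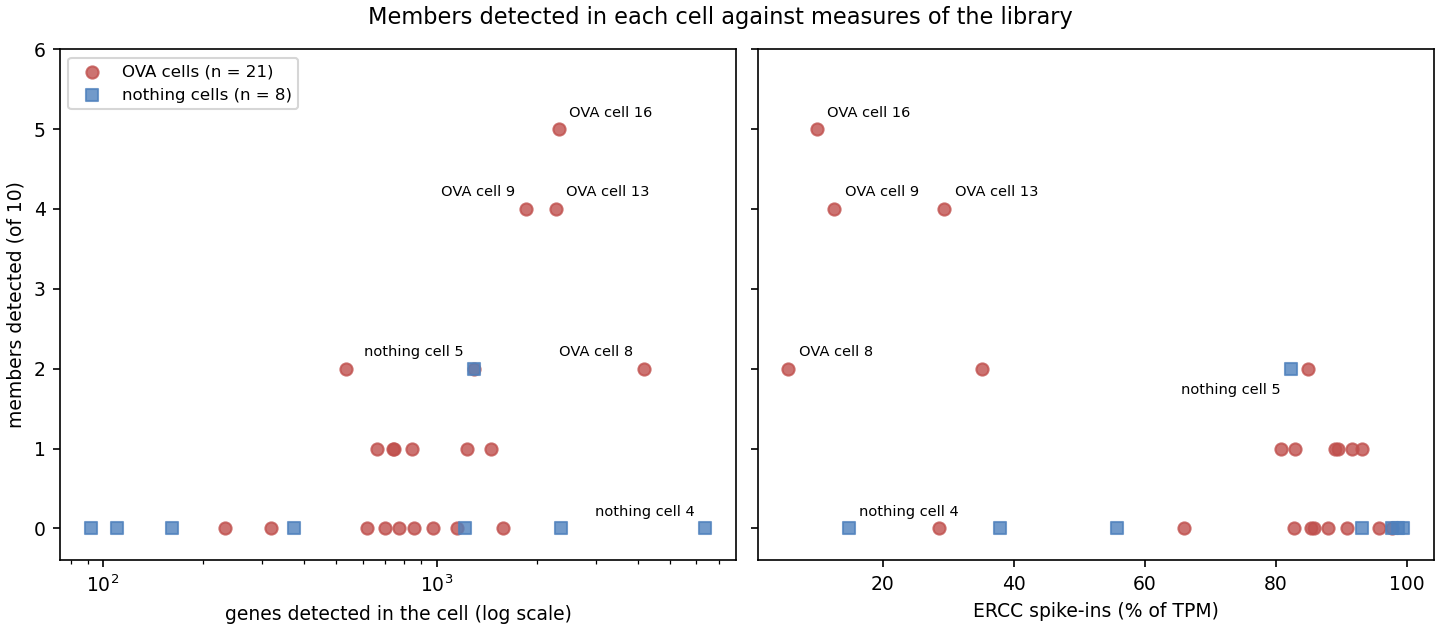
Number of the 10 genes detected in each cell against the genes detected in its library (left, log scale) and its ERCC spike-in share in % of TPM (right), red circles for OVA cells and blue squares for nothing cells. The 3 cells with 4 or 5 genes have 1850 to 2320 genes and 9.88% to 29.4% spike-ins, and nothing cell 4 has 6385 genes and none of the 10; OVA cell 5 lies under nothing cell 5 in the left panel.

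The wider pathway was split in direction on the deposited scale, and its split moved with the scaling. Of 67 further genes (coreceptors, kinases and phosphatases, adaptors, and the calcium, protein kinase C and Ras branches), 25 had a difference above 0, 22 below 0 and 20 were at 0, with a median of 0.00. Over the 46 that were detected the median was 0.13. Rescaled without spike-ins, 27 lay above and 20 below 0. Size factors rested on 11 genes only, with a median factor of 0.735 in OVA cells and 2.57 in nothing cells. They raised the median over all genes detected in at least 3 cells from 0.10 to 0.48. Divided by them, 38 of the pathway genes lay above and 9 below 0. Of the 10 genes only Cd3g was detected in both groups and could change sign with the scaling, so they are not set beside these counts. As deposited, 0 of the 67 pathway genes were higher by at least 1 and 1 was lower. Without spike-ins Ptpn22 and Fyb were higher by at least 1, and Tespa1 (-2.36) and Cd28 (-1.48) were lower by at least 1. With size factors Ptprc and Ptpn22 were higher by at least 1, and 0 were lower. Tespa1, an adaptor of thymocyte signalling, was lower by at least 1 as deposited (difference -1.76, or -0.99 with size factors; 4 OVA and 3 nothing cells, highest at 116 TPM in nothing cell 7). Among kinases and phosphatases, Ptprc (CD45, which keeps Lck active) was detected in 7 OVA and 2 nothing cells with a difference of 0.25 as deposited, 0.59 without spike-ins and 1.21 with size factors. Ptpn22, a phosphatase that opposes Lck and Zap70, was in 5 and 1 cells (0.66, 1.08 and 1.20).

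Other genes detected in at least 3 cells went both ways as deposited. Of the genes below 0, Txk, Tec, Ptpn11, Grb2, Pag1, Dgka, Ppp3cb, Ppp3ca and Itpr1 turned above 0 with size factors, Grb2 and Itpr1 also without spike-ins. Txk (-0.37), Tec (-0.23) and Ptpn11 (-0.28) were each in 2 OVA cells and 1 nothing cell. Of the adaptors, Fyb, which binds Lcp2, was in 4 OVA cells only (0.88). Grap2, which links Lcp2 to Lat, was in 4 and 1 (0.30), Ubash3b in 3 and 1 (0.45), Grb2 in 3 and 1 (-0.04) and Pag1 in 2 and 1 (-0.44). Of the later branches, the NF-κB scaffold genes Bcl10 (0.44) and Malt1 (0.45) were each in 4 and 1 cells. Negative differences were found for Dgka (-0.35), Ppp3cb (-0.53), Ppp3ca (-0.29) and Itpr1 (-0.02). The costimulatory receptor Cd28 was in 1 OVA and 2 nothing cells (-0.70). Nothing cell 4, with none of the 10 genes, had 18 of the 67, among them Cd4 (30.5 TPM) and Cd247 (26.7 TPM), the CD3 ζ chain. These 2 were picked after their values were seen.

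The genes most alike in pattern were found by Pearson's r of log2(TPM + 1) over all 29 cells, among 2422 named genes detected in at least 3 cells. Most points are at 0 in both genes and the cells share their library's depth, so r is a description of a few cells. For the summed constant genes they were Tpst2 (r = 0.94), Pnrc1 (0.93), Tcf7 (0.92), Hsph1 (0.88) and Fyb (0.87). Without OVA cell 13 these were 0.88, 0.85, 0.87, 0.76 and 0.73. Tcf7, a transcription factor of naive and memory T cells, was detected in 6 cells, including all 4 with a constant gene. For Thy1 they were Kmt5a (0.79), Snhg8 (0.77), Rrp15 (0.72), Tma7 (0.72) and Ctdspl (0.71), which lay between 0.45 and 0.64 without OVA cell 15. For Lcp2 they were Elf1 (0.86), Bdp1 (0.83), Syf2 (0.83), Cs (0.83) and Pitpnc1 (0.82), and between 0.73 and 0.83 without OVA cell 13.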

How the data were processed

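The authors deposited 1 table of TPM values for the 29 cells, made with the spike-ins in the total. Every column belonged to a labelled cell, with 0 left over. Tools listed in the submitters' processing notes are featureCounts 1.6.4, StringTie 1.3.5 and HISAT2 2.1.0, and the build is given as GRCm38 or mm10; no role is stated for any. Whether counting used strand is not given in the sources used here. Of 54838 genes, 54809 had the same identifier and chromosome in GENCODE M21 (GRCm38), from which positions and sequences were read. Python 3.11.15 with pandas 2.3.3 and scipy 1.17.1 was used, and the calculation was tested on simulated data. Differences are means of log2(TPM + 1), OVA minus nothing. Intervals are exact Clopper-Pearson at 95%, and a share of 0 carries the limit of 3 cells of the total.

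The 10 genes and all lists were chosen with earlier results of these data known. Named genes were all 10, up to 20 other pathway genes detected in at least 3 cells, segments in cells with a constant gene, the 5 genes most alike in pattern, and the highest marker of another cell type in a cell with one of the 10. Some genes that this rule names are left out of the text. Predicted models, pseudogenes and mitochondrial genes were left out of the search for likeness. Doublets were not called, as each tube was 1 library. Alternatives were other detection thresholds and pseudocounts, rescaling without spike-ins, size factors, subsets of cells and leaving out each cell.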

Additional observations from a re-analysis of the deposited data

Results flagged for a closer look

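In the nothing group, 15 measures were examined by the gap of the outermost cell to its nearest over the range of the group. Of these, 8 were the same in all 8 cells and could not stand apart, and 5 of the others did, in nothing cells 4 and 5. Chance flags about 1 in 20 groups where values are continuous, and any lone value above 0 is marked when the others are at 0. Nothing cell 5 had 43.4 TPM of Cd3e and 35.3 TPM of Cd3g, with 0 in the other 7 cells, and so 2 of the 10 genes where the next cell had 0. Nothing cell 4 had 18 of the 67 other pathway genes, where the next cell had 7, and 6385 genes detected, where the next had 2364.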

How the results depend on the processing

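Depth is unknown, and 97.3% of all gene values are 0. No spread between mice or cultures can be given. No paired analysis was possible because the labels carry no replicate numbers and each group is 1 sample.

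The share of OVA cells with a constant gene was 44.44% in cells with at least 1000 genes (9 OVA, 4 nothing), against 19.05% in all, and 15% to 20% when any cell was left out. The share of nothing cells with any of the 10 genes was 0% to 14.29% with a cell left out, and 0% without nothing cell 5. Cells with at least 2 of the genes numbered 4 rather than 7 among cells with fewer than 3 neutrophil genes (13 OVA, 6 nothing), an alternative chosen after seeing the data. The difference of Cd3g ranged from -0.65 (without OVA cell 21) to 0.24 (without nothing cell 5), which reversed it. Leaving out a cell moved the median difference between 0.53 (without OVA cell 13) and 0.80. It was 1.22 with a pseudocount of 0.1, 0.34 with 10, and 0.37 (5 genes higher rather than 7) in cells with fewer than 3 neutrophil genes. No cell with Zap70 or Cd3d was left among those, so the differences of these genes were 0 there. Rescaling without spike-ins raised the median over genes detected in at least 3 cells from 0.10 to 0.25. Size factors, which rested on 11 genes only, raised it to 0.48. Size factors turned the sign of 13 of the 67 other pathway genes, and rescaling that of 2; all but Cd3g of the 10 genes are at 0 in 1 or both groups and could not change sign. Of the other values under the alternatives run, 252 for the summary results and 359 for single genes did not reverse and were not counted as moved. Some of them still lay far from the reported value. In cells with at least 1000 genes the difference was 2.43 for Trac (1.04 as reported), 2.09 for Trbc1 (0.90) and 2.57 for Trbc2 (1.10). That of Thy1 was 1.08 there (1.13 as reported). The cause of such moves was not tested.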
